A study of Mus musculus with 2 samples.

Results

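Cytokine transcripts of the type 2 group (Il4, Il5 and Il13), of the IL-6 family (Il6, Osm and Lif) and of the colony-stimulating group (Il3 and Csf2), together with Il10, were examined in the stem cells of mice with chronic myeloid leukemia (CML), a model made by transplantation. The 9 genes were taken by symbol from the 23284 gene symbols that both expression tables list. One table came from WT cells and the other from cells of STAP-1 KO mice, in which the locus of the adaptor protein STAP-1 was disrupted by targeting. In both groups, donor LSK cells (lineage-negative cells that express Sca-1 and c-Kit) of C57BL/6J background were infected with a retrovirus carrying p210 BCR-ABL and green fluorescent protein (GFP), and were transferred into lethally irradiated congenic mice of the strain C57BL/6SJL together with normal bone marrow cells. GFP+ CD45.2+ LSK cells were then sorted at day 11 after this first transplantation. Mice were aged 8 to 14 weeks. The recipients were not stated to lack STAP-1, so the genotype concerns the transduced cells, and the number of mice behind each library is not given in the sources used here. With 1 library per genotype no difference has a replicate check, and none was tested.

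Cytokines are secreted proteins through which blood cells instruct each other and themselves. IL-4, IL-5 and IL-13 are the signature products of type 2 immunity, in which helper T cells, group 2 innate lymphoid cells, basophils and mast cells take part, and IL-4 and IL-13 share the receptor chain IL-4Rα and the transcription factor STAT6. IL-6, oncostatin M (Osm) and LIF all signal through the shared receptor chain gp130, largely to STAT3, whereas IL-3, IL-5 and GM-CSF (encoded by Csf2) signal through a common β chain to STAT5. BCR-ABL, the kinase that drives CML, activates STAT5 by itself, and autocrine IL-3 and GM-CSF have long been studied in this leukemia. The values below are transcript levels and say nothing of secreted protein.

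Levels are given as FPKM (fragments per kilobase of transcript, scaled to library size), and since this scale is divided by length, genes can be compared on it. Each difference is log2((STAP-1 KO + 0.1)/(WT + 0.1)). Low genes differ by more than this measure shows, because of the added 0.1 FPKM. A gene was counted as higher or lower at a ratio of at least 2-fold with at least 0.1 FPKM in both libraries. The FPKM values fall on steps, from which effective depths of 7500000 reads (WT) and 10470000 reads (STAP-1 KO) were estimated. About 40% of low values lay within 0.01 of a whole read (39.7% of 388 and 40.7% of 442), so the estimate of reads behind a value is approximate. The 95% intervals below follow from those reads and cover counting error only, since amplified reads without molecular identifiers are not independent molecules.

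The targeted gene was examined first. Stap1 had 62.0 FPKM in WT and 0.309 FPKM in STAP-1 KO cells, as the genotypes of the labels state. Of the genes by which LSK cells are sorted, Kit (c-Kit), which mast cells express as well, had 468 and 30.1 FPKM and Ly6a (Sca-1) had 285 and 106 FPKM, so both were present in each library. Cd34, carried by many progenitors, had 281 and 194 FPKM. Of 12507 genes that could be compared, 22.9% were lower in STAP-1 KO cells by 2-fold or more and 12.3% were higher. Over the 10974 genes whose mean reached 1 FPKM, the median log2 difference was -0.04, and the 5th and 95th percentiles were -2.52 and 1.39.

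Il4, Il13, Il5, Csf2 and Il3 stand in 1 cluster on chromosome 11, in this order over 664 kb of GRCm38. Il4 (chr11:53602982-53618669, minus strand, 4 exons) and Il13 (chr11:53631324-53634702, minus strand, 4 exons) are 12.7 kb apart. Il5 (chr11:53720794-53725106, plus strand, 4 exons) follows after a gap of 86.1 kb. Csf2 (chr11:54247271-54249667, minus strand) and Il3 (chr11:54265303-54267277, minus strand) form the far end with 15.6 kb between them. Osm (chr11:4236420-4241026, plus strand, 3 exons) and Lif (chr11:4257557-4272514, plus strand) are a second pair on chromosome 11, separated by 16.5 kb. Il6 (chr5:30013114-30019981, plus strand, 5 exons) and Il10 (chr1:131019845-131024974, plus strand, 5 exons) stand alone.

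Promoter windows of RefSeq (GRCm38.p6), each from 250 bases before to 50 bases after the annotated start, were found for 7 of the 9 genes, Il4, Il5, Il13, Il6, Lif, Il3 and Csf2. Of these, 5 are shown, because Il4, Il13, Il6 and Lif had the largest differences between the libraries and Il5, from the same cluster as Il4 and Il13, was listed at 0. They are chr11:53618616-53618915 (minus strand) for Il4, chr11:53634653-53634952 (minus strand) for Il13, chr11:53720544-53720843 (plus strand) for Il5, chr5:30012864-30013163 (plus strand) for Il6 and chr11:4257318-4257617 (plus strand) for Lif. Capitals mark every match, on either strand, to the motifs searched, which were GGAAA (the core bound by NFAT factors), TGANTCA (AP-1), GGANTTTCC and GGGNNTTCC (NF-κB), AGATAA with its variant form TGATAA (for the GATA family), TTCNNNGAA (STAT factors), TGACGTCA (CRE) and TTGCNNAA (C/EBP), with N for any base.
Il4: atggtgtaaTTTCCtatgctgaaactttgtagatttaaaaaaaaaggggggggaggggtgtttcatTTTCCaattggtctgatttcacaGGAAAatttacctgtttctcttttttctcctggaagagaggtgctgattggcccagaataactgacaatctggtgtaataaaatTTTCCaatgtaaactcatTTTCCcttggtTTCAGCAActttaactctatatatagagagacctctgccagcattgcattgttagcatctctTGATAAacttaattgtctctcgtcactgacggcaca
Il13: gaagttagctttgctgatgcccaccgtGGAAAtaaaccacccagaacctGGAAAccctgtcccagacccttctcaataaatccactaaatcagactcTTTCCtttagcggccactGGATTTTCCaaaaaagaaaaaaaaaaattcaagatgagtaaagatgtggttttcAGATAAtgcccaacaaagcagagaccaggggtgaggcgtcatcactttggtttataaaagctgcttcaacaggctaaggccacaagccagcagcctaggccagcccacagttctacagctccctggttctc
Il5: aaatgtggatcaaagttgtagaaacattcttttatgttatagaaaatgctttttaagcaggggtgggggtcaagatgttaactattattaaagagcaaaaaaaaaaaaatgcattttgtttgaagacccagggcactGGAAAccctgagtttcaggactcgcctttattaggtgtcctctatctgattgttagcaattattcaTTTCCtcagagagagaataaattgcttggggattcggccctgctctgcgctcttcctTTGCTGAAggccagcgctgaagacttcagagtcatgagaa
Il6: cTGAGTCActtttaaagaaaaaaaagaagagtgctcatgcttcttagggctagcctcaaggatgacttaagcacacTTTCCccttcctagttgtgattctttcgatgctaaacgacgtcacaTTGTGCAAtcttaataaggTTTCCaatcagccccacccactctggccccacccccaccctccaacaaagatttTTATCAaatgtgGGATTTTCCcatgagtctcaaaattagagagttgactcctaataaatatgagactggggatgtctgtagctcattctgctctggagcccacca
Lif: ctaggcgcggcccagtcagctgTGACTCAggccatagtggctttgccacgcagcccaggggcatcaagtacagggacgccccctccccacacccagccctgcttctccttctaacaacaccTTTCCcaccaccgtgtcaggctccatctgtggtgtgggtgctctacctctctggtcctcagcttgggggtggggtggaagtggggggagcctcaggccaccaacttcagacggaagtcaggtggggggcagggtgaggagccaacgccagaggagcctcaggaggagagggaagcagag

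The letters of the NFAT core were in all 7 windows, and in 61.3% of 32851 promoter windows of the same length. Their number differed among the genes. The Il4 window had 5 matches, which 0.728% of all windows equalled or exceeded, and the Il13 window had 4, which 2.65% did. The windows of Il6 and Csf2 had 3 matches each, which 9.42% of all windows equalled or exceeded, that of Il5 had 2 (26.7%), and those of Lif and Il3 had 1 each. A GATA match in either form was in 5 of the 7 windows, those of Il4, Il13, Il6, Il3 and Csf2, against 18.6% of all windows. Matches to either NF-κB form were in the windows of Il13 and Il6 (7.001% of all windows). In both, the match overlaps 1 of the NFAT cores counted above, and it begins 135 and 43 bases before the start. The AP-1 letters were in 2 windows, those of Il6 and Lif (7.81% of all), and the C/EBP letters in 4, those of Il4, Il5, Il6 and Csf2 (10.8% of all). No window held the STAT or CRE letters, which 8.30% and 1.79% of all windows held. The RefSeq start of Csf2 lies upstream of the GENCODE start used for its coordinates above (54249667). Its window (chr11:54249850-54250149, minus strand) lies wholly upstream of that GENCODE start, so the bases next to that start were not searched. These are matches of letters only, and whether any of them was bound in these cells was not measured.

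Of the 9 cytokine genes, 8 could be compared and 7 of them (87.5%) were lower in STAP-1 KO cells by 2-fold or more, where 22.9% of all genes were. Il10 was the 1 gene that was higher, a direction taken by 12.3% of all genes, and Il5 was listed at 0 in both libraries. The median log2 difference over the 8 genes was -2.48. In summed FPKM the 9 genes had 1392 in WT and 320.1 in STAP-1 KO cells. In bulk RNA, fewer cells that make a transcript and less of it per cell cannot be told apart.

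**Figure D1:**
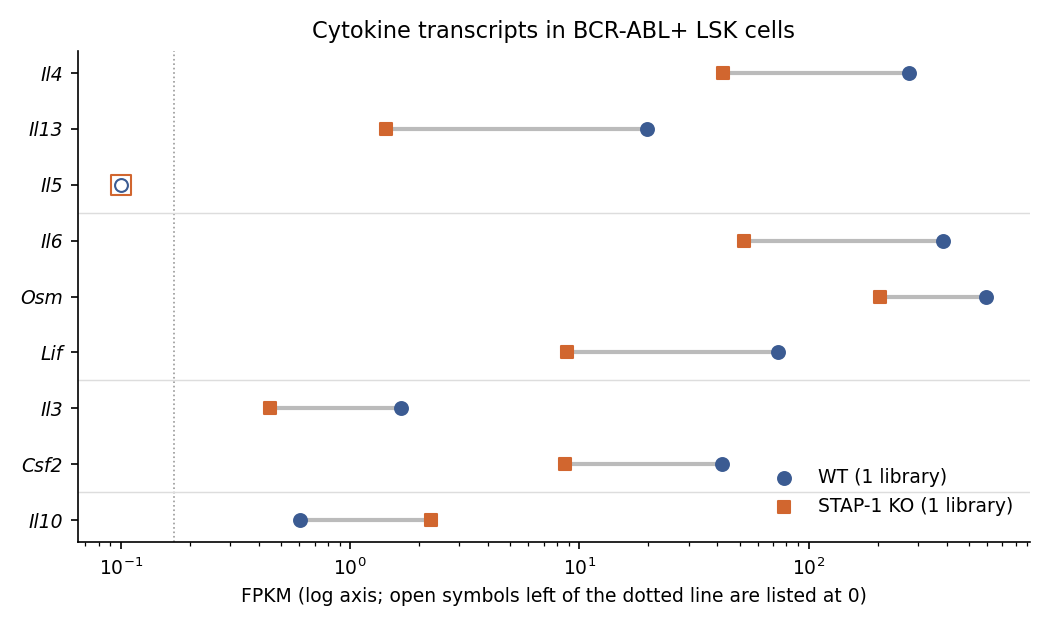
Level of each cytokine transcript in FPKM (log axis) in the WT library (circles) and the STAP-1 KO library (squares), grouped as type 2, IL-6 family, colony-stimulating factors and Il10. Osm was highest in both libraries (597 and 204 FPKM), Il10 was the 1 gene with the square to the right, and Il5 was at 0 in both.

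The order of the levels was much alike in both libraries. In WT cells it ran from Osm (597 FPKM, 95% interval 585 to 609) over Il6 (384), Il4 (274), Lif (73.5), Csf2 (41.9) and Il13 (19.8) to Il3 (1.66) and Il10 (0.607). In the STAP-1 KO library Osm (204 FPKM, 198 to 210.3) again stood first, before Il6 (52.1), Il4 (42.2), Lif (8.85), Csf2 (8.69), Il10 (2.26), Il13 (1.44) and Il3 (0.447). The intervals of neighbours overlapped for Il3 and Il10 in WT cells. In the STAP-1 KO library they overlapped for Il6 and Il4, for Lif and Csf2, and for Il10, Il13 and Il3, so these orders were not distinguishable at this depth. Among all genes of the library, Osm ranked 104th in WT and 524th in STAP-1 KO cells, and Il6 ranked 203rd and 2390th.

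Among the type 2 cytokines, the 2 expressed genes were both lower in STAP-1 KO cells, and Il13 by more than Il4. Il4, which drives type 2 differentiation and IgE switching, had 274 FPKM in WT and 42.2 FPKM in STAP-1 KO cells (about 784 and 169 reads). Its level was 6.49-fold lower (95% interval 5.48 to 7.69), a log2 difference of -2.69. Il13, the effector cytokine of mucus production and tissue remodelling, had 19.8 FPKM in WT and 1.44 FPKM in STAP-1 KO cells (about 148 and 15.0 reads). It was 13.8-fold lower (8.09 to 25.2), with a log2 difference of -3.69. These counting intervals, without correction, did not overlap, and Il4 was 13.8 times as abundant as Il13 in WT cells and 29.4 times in STAP-1 KO cells. The length and GC correction given below brought their log2 differences closer (-3.47 for Il4 and -4.10 for Il13). A pseudocount of 1 FPKM did so too (-2.67 and -3.09). Il5, the growth factor of eosinophils, was listed at 0 in both libraries, where 3 reads would have given 0.301 FPKM in WT and 0.216 FPKM in STAP-1 KO cells.

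The IL-6 family held the most abundant transcripts, and its 3 genes were all lower in STAP-1 KO cells, Osm by much less than the others. Il6, the inducer of the acute phase response, had 384 FPKM in WT and 52.1 FPKM in STAP-1 KO cells, and was 7.38-fold lower (6.70 to 8.12). Lif, which keeps mouse embryonic stem cells undifferentiated, had 73.5 FPKM in WT and 8.85 FPKM in STAP-1 KO cells and was 8.31-fold lower (7.42 to 9.32). The ratio of Il6 to Lif was 5.22 in WT and 5.88 in STAP-1 KO cells, but after the length and GC correction given below their log2 differences were further apart (-3.79 and -2.50). Osm, a cytokine of myeloid cells and a known STAT5 target, had 597 FPKM in WT and 204 FPKM in STAP-1 KO cells. It was 2.92-fold lower (2.82 to 3.03), and its interval overlapped neither that of Il6 nor that of Lif. Osm was 8.12 times as abundant as Lif in WT and 23.1 times in STAP-1 KO cells. The correction brought their log2 differences closer (-1.65 and -2.50). Of the summed FPKM of the 9 cytokines, Osm made up 42.9% in WT and 63.8% in STAP-1 KO cells, while the share of Il6 was 27.6% and 16.3%.

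Of the colony-stimulating factors, Csf2 was well expressed and Il3 barely so. Csf2, whose product GM-CSF supports granulocytes and macrophages, had 41.9 FPKM in WT and 8.69 FPKM in STAP-1 KO cells, from about 186 and 53.8 reads. It was 4.82-fold lower (3.53 to 6.64). Il3, a growth factor of early progenitors, mast cells and basophils, had 1.66 FPKM in WT and 0.447 FPKM in STAP-1 KO cells. These levels rest on only about 5.26 and 1.97 reads, and the ratio of 3.72-fold has an interval from 0.571 to 36.6, so a difference was not detectable for Il3 at this depth. Il10, which restrains macrophages and supports mast cells, had 0.607 FPKM in WT and 2.26 FPKM in STAP-1 KO cells. It was 3.72-fold higher (1.41 to 12.4), from about 5.02 and 26.1 reads.

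**Figure D2:**
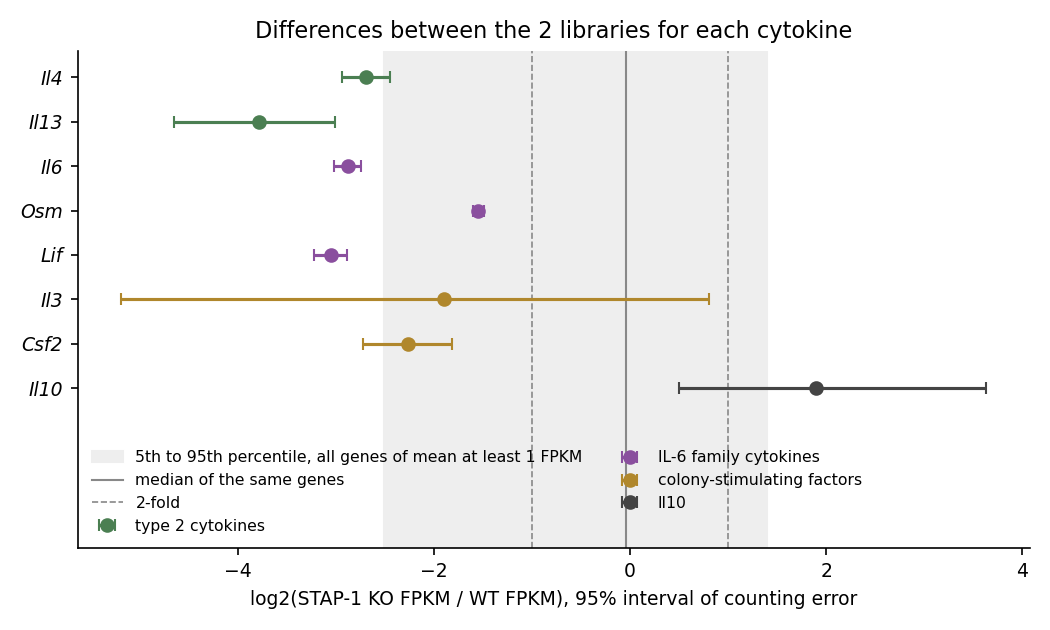
Difference of each cytokine between the libraries on a log2 scale without pseudocount, with the 95% interval of counting error, over the range of all genes whose mean reached 1 FPKM (shaded, 5th to 95th percentile with a pseudocount of 0.1 FPKM). Il4, Il13, Il6 and Lif lie left of the shaded range at their point values, Osm, Il3 and Csf2 within it, Il10 to its right, and the interval of Il3 spans no difference.

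Set side by side, the median log2 difference was -3.19 for the type 2 genes (Il4 and Il13), -2.88 for the IL-6 family and -1.97 for the colony-stimulating factors, of which Il3 had no detectable difference. The summed FPKM was 293 and 43.6 for the type 2 genes, 1055 and 265 for the IL-6 family and 43.5 and 9.13 for the colony-stimulating factors, with WT first. The groups were not clearly set apart, since the spread within the IL-6 family, from -1.55 for Osm to -3.04 for Lif, was wider than the distance between the medians. Across 10863 expressed genes of known transcript length, the log2 difference declined with length (Spearman's rho -0.39, across genes, which are not independent replicates). After a correction for length and GC content the differences were -3.47 for Il4, -4.10 for Il13, -3.79 for Il6, -1.65 for Osm, -2.50 for Lif, -2.24 for Il3 and -2.93 for Csf2. The group medians were then -3.78 for the type 2 genes, -2.50 for the IL-6 family and -2.58 for the colony-stimulating factors, so the latter groups changed places. The difference of Il10, 1.74 with the added 0.1 FPKM, became 0.995, just short of the 2-fold limit. Corrected values carry the added 0.1 FPKM, whereas the main calls use the ratio without it, which was 1.90 in log2 for Il10.

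Genes with the most similar pair of levels were found for each cytokine by the distance in log2(FPKM + 1). The nearest to Il6 was Itm2c (379 and 56.3 FPKM), at a distance of 0.112. Nearest to Osm was S100a10 (562 and 225 FPKM), and nearest to Csf2 was Crlf2 (41.9 and 8.59 FPKM), a chain of the receptor for TSLP. The nearest genes to the others were Fam105a for Il4, E330020D12Rik for Il13, Ng23 for Lif, Fcnb for Il3 and D0H4S114 for Il10. The measure compares 2 libraries only. Within a distance of 0.5 lay 5 genes for Il6, 9 for Il4, 17 for Osm, 30 for Lif, 38 for Il13, 85 for Csf2, 234 for Il10 and 492 for Il3.

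The genes around the cytokine cluster did not share its lower level as a block. Of 22 other genes within 300 kb of a cytokine of the cluster, 19 could be compared, of which 6 were lower, 3 higher and 10 within 2-fold, with a median log2 difference of -0.03. These counts were not far from the shares over all genes (22.9% lower and 12.3% higher). Kif3a, a kinesin gene 1.01 kb from Il4, had 6.96 and 6.72 FPKM, and Rad50, a DNA repair gene between Il13 and Il5, had 17.2 and 18.4 FPKM. Both were within 2-fold, beside cytokines that differed by 6.49-fold and 13.8-fold. Irf1, an interferon-regulated transcription factor, was higher in STAP-1 KO cells (29.4 and 59.6 FPKM), as were Slc22a4 (1.82 and 4.66 FPKM) and, by about 2.00 and 9.97 reads, Pdlim4 (0.273 and 0.978 FPKM), whose interval from 0.763-fold to 33.6-fold spans no difference. After the length and GC correction the log2 difference of Irf1 was 0.81, below the 2-fold limit, and that of Rapgef6, listed next, was -0.26. The lower genes were P4ha2 (22.5 and 2.67 FPKM), Fnip1 (13.3 and 1.64 FPKM), Aff4 (19.03 and 3.56 FPKM), Sept8 (29.1 and 8.59 FPKM), Slc22a21 (1.66 and 0.594 FPKM) and Rapgef6 (11.6 and 5.39 FPKM).

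**Figure D3:**
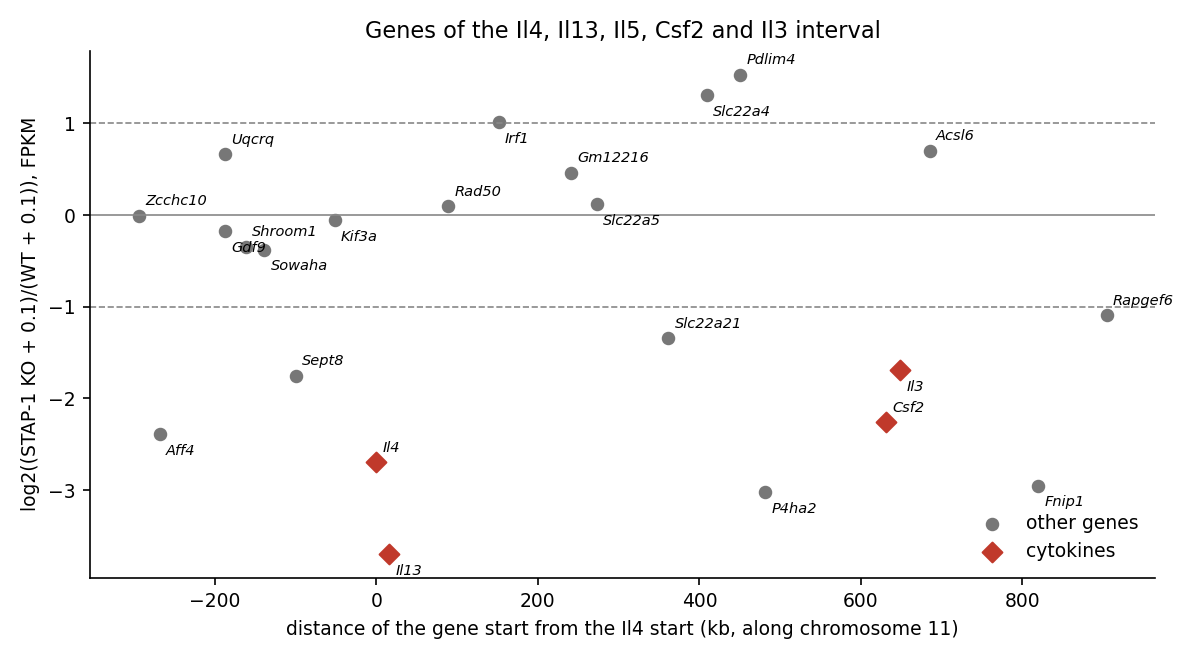
Log2 difference between the libraries (pseudocount 0.1 FPKM) of the genes within 300 kb of the chromosome 11 cluster, against the distance of their start from that of Il4 in kb. The 4 measured cytokines of the cluster (diamonds) lie below the lower dashed 2-fold line, while the other genes (circles) lie on both sides with 10 of 19 between the lines.

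Around Osm and Lif, 10 of 14 other genes could be compared, and 5 were lower, 1 higher and 4 within 2-fold (median -0.71). Over all genes, 22.9% were lower and 12.3% higher. The higher gene, Mtfp1, and the lower gene Ccdc157 were within 2-fold after the length and GC correction (0.88 and -0.39). The nearest, Gatsl3 and Tbc1d10a, had 15.1 and 5.70 FPKM and 19.2 and 13.8 FPKM. Around Il6, 9 of 12 genes could be compared, with 2 lower, 1 higher and 6 within, near the shares over all genes. The nearest neighbour of Il6, the thymidylate synthase gene Tyms, was higher in STAP-1 KO cells (25.5 and 51.4 FPKM). Around Il10, 3 of 10 compared genes were lower, near the 22.9% of all genes, and none was higher, and after the correction Srgap2 was no longer lower (-0.08). Mapkapk2, 28.7 kb from Il10, had 104 and 113 FPKM, and the related cytokine genes Il19, Il20 and Il24 of the same locus were listed at 0 in both libraries.

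The transcripts themselves share a feature that the choice of genes did not use. AU-rich elements after the stop codon mark many short-lived mRNAs, and their core ATTTA was present at least once in all 9 cytokine transcripts, against 67.5% of 18364 protein-coding genes. Per kilobase after the stop codon, its density was from 2.201 in Lif to 28.4 in Csf2, each above the median of 1.35 over all genes. Csf2 had 9 copies in 317 bases, Il6 had 6 copies in 427 bases and Il4 had 2 copies in 104 bases. The longer form TTATTTATT was in Csf2, Lif and Il13 (3 of 9, against 7.63% of all genes). Il10, the gene that was higher, had 6 ATTTA copies in 706 bases, and Il5, listed at 0, had 7 copies in 1092 bases.

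The receptors of these cytokines were examined next. Of 15 receptor chains, 13 could be compared. Of these, 8 were lower in STAP-1 KO cells, where 22.9% of all genes were, and none was higher (median log2 difference -1.54). With the length and GC correction 7 were lower, without Il6st (-0.59), and 7 were lower under an equal FPKM sum. The common β chain gene Csf2rb had 260.2 FPKM in WT and 26.2 FPKM in STAP-1 KO cells, and its IL-3-specific mouse copy Csf2rb2 had 238 and 6.17 FPKM. These are near-identical copies among which reads can be divided arbitrarily, so their sum, 498 and 32.3 FPKM (15.4-fold lower), is the safer value. The α chain of the GM-CSF receptor, Csf2ra, was nearly the same in both libraries (15.7 and 14.6 FPKM), Il3ra was lower (15.1 and 5.16 FPKM), and Il5ra was low in both (0.439 and 0.628 FPKM).

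Il4ra, the chain shared by IL-4 and IL-13, had 112 FPKM in WT and 14.9 FPKM in STAP-1 KO cells, and Il2rg, its partner in the IL-4 receptor of blood cells, had 626 and 298 FPKM. Il13ra1 was near 1 FPKM in both (1.04 and 1.02 FPKM) and the decoy receptor Il13ra2 was listed at 0 in both. The chains of the IL-6 family receptors were low where their ligands were high. Il6st, which encodes gp130, had 4.35 and 1.42 FPKM, Il6ra had 0.596 and 0.945 FPKM, and Lifr had 1.58 and 0.288 FPKM. Osmr, the specific chain for oncostatin M, was at 0.0288 FPKM in WT and listed at 0 in STAP-1 KO cells. For IL-10, Il10ra was lower (73.1 and 7.91 FPKM), whereas Il10rb was within 2-fold (47.4 and 38.6 FPKM).

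**Figure D4:**
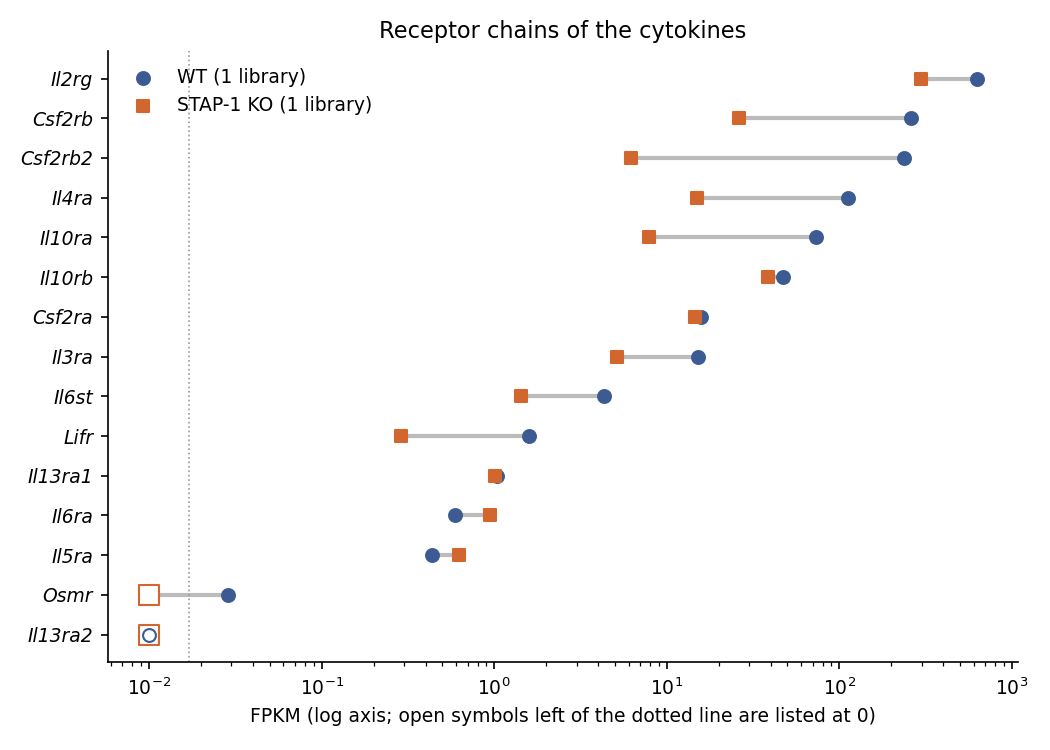
Levels of the 15 receptor chains of these cytokines in FPKM (log axis) in the WT library (circles) and the STAP-1 KO library (squares). The 8 lower chains include Csf2rb, Csf2rb2, Il4ra and Il10ra, while Csf2ra, Il10rb and Il13ra1 are nearly the same in both libraries.

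Other cytokine genes did not all follow. Csf1, the macrophage growth factor, had the greatest difference of the cytokines examined (369 and 3.66 FPKM), and Flt3l was also lower (22.6 and 8.37 FPKM). Of the IL-6 family, Ebi3, a subunit of IL-27 and IL-35, was lower (51.2 and 24.3 FPKM) by 2.11-fold (1.79 to 2.49), a call lost when the libraries were scaled to an equal FPKM sum, and Ctf1 was within 2-fold (0.939 and 1.51 FPKM). Tslp, an alarmin that acts on type 2 cells, was higher in STAP-1 KO cells (0.288 and 2.57 FPKM), and Il9, Il25 and Il31 were listed at 0 in both. Il22, of the IL-10 family, had 1.21 and 0.978 FPKM, and was past the 2-fold limit after the length and GC correction (-1.08). Of 6 compared type 1, type 3 and T cell growth cytokines, 2 were lower, 3 higher and 1 within 2-fold. Over all genes, 22.9% were lower and 12.3% higher. Tnf (74.4 and 26.2 FPKM) and Lta (3.63 and 1.46 FPKM) were lower, Il12a (1.25 and 7.27 FPKM), Il7 (0.118 and 0.969 FPKM) and Ifng (0.401 and 1.15 FPKM) were counted as higher, and Il15 was within 2-fold (2.75 and 5.19 FPKM). The interval of Ifng, from 0.773-fold to 15.8-fold, spans no difference. Il12b was under the floor in 1 library (0.842 and 0.0548 FPKM) and was not compared, and with a floor in either library 3 genes of this list were lower.

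Of 25 transcriptional regulators of cytokine genes, 23 could be compared, and 16 were lower and 1 higher (median -1.39). Over all genes, 22.9% were lower and 12.3% higher. With the length and GC correction, on values that carry the added 0.1 FPKM, 12 of these regulators were lower and their median was -1.13. The 5 with the largest differences at a pseudocount of 1 FPKM were Gata2, a factor of progenitors, mast cells and basophils (409 and 55.2 FPKM), Nfatc2, a calcium-dependent activator of Il4 (9.58 and 0.770 FPKM), Bhlhe40 (268 and 54.6 FPKM), the immediate early gene Egr1 (575 and 121 FPKM) and Ikzf1 (46.6 and 11.9 FPKM). The 1 higher regulator, Cebpa, a granulocyte factor that is named because of its direction, had 0.768 and 4.36 FPKM, and its log2 difference at 0.1 FPKM, 2.36, was larger in size than those of Bhlhe40 (-2.29), Egr1 (-2.24) and Ikzf1 (-1.96).

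Genes known to respond to these cytokines were grouped by pathway. Of the targets of IL-4, IL-13 and STAT6, 7 of 9 compared genes were lower and 1, Ccl17, was counted as higher (median -2.46). Ccl17 rests on about 3.002 and 11.01 reads, and its interval from 0.694-fold to 14.7-fold spans no difference. With the length and GC correction no gene of the list was higher, and Ccl17 was at 0.94. That value carries the added 0.1 FPKM, whereas the main call used the ratio without it (1.39 in log2). Egr2 had 52.1 and 2.91 FPKM, Clec10a, a macrophage lectin, had 31.3 and 4.52 FPKM, and Retnla had 3.42 FPKM in WT and was listed at 0 in STAP-1 KO cells. Of 12 targets of IL-3, GM-CSF, IL-5 and STAT5, 7 were lower and 1, Id1, was higher (median -1.62). Il2ra had 346 and 24.3 FPKM, Spry1 had 48.0 and 10.7 FPKM, and Lcp2 had 211 and 56.9 FPKM. In the gp130 and STAT3 list, 2 of 10 genes were lower, 2 higher and 6 within 2-fold (median -0.48), which is near the shares over all genes (22.9% lower and 12.3% higher). With the correction, or under 3 of the 4 other scalings, 1 of them was lower. In it, Il4ra was lower as given above, Myc was higher (59.2 and 169 FPKM), and Saa3 was listed at 0 in WT and had 4.14 FPKM in STAP-1 KO cells. Of the IL-10 targets, 5 of 7 were lower and none was higher (median -1.34), among them Il4ra, Sbno2 (22.3 and 7.74 FPKM) and Nfil3 (35.1 and 13.3 FPKM). After the length and GC correction 3 of them were lower, without Sbno2 (-0.61), and the median was -0.57. Several genes stand in more than 1 list, so the lists are not independent.

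Markers of cell types that make or answer these cytokines were set beside them. The marker counts below stand against 22.9% lower and 12.3% higher over all genes. All 9 mast cell markers that could be compared, of 10, were lower in STAP-1 KO cells, and their summed FPKM was 49059 in WT and 4257 in STAP-1 KO cells, an 11.5-fold difference. Cpa3 (17984 and 1774 FPKM), Cma1 (13924 and 1168 FPKM) and Tpsb2 (7016 and 185 FPKM), all mast cell proteases, were highest, and Mrgprb2 was listed at 0 in STAP-1 KO cells. Of the 4 basophil markers 3 were lower, with a sum of 3432 and 1080 FPKM, and Mcpt8 had 2800 and 993 FPKM, Cd200r3 had 549 and 30.3 FPKM and Prss34 had 71.1 and 56.7 FPKM. The differences of Il4 (6.49-fold), Il13 (13.8-fold), Il6 (7.38-fold) and Lif (8.31-fold) stand beside these, and the part of the markers in them was not tested.

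Of 8 markers of group 2 innate lymphoid cells, 5 were lower and 1 was higher, with a sum of 544 and 33.9 FPKM that was mostly Il1rl1, the IL-33 receptor also carried by mast cells and basophils (521 and 23.3 FPKM). Il7r had 11.6 and 1.56 FPKM, while Gata3, the master regulator of type 2 lymphocytes, was low and within 2-fold (3.59 and 4.48 FPKM). Of 9 T cell markers, 3 were higher, 1 was lower and 5 were within 2-fold, with a sum of 187 and 138 FPKM, in which Lat (169 and 86.7 FPKM), Lck (11.8 and 41.9 FPKM) and Cd3g (1.80 and 5.04 FPKM) were highest. The intervals of Cd4, counted as higher, and Cd8a, the 1 lower gene, span no difference (0.933-fold to 18.1-fold higher and 0.748-fold to 12.7-fold lower). In the early granulocyte list all 5 markers were higher (564 and 4623 FPKM), with Mpo at 248 and 1973 FPKM, Ctsg at 104 and 841 FPKM and Elane at 112 and 823 FPKM. Of 7 eosinophil markers, 4 could be compared, 3 of them higher and 1 lower (10.7 and 79.5 FPKM), in which Prg2 had 2.12 and 61.7 FPKM, Ear2 went the other way (6.91 and 2.78 FPKM) and Epx had 1.02 and 8.62 FPKM. The macrophage or monocyte sum was 126 and 135 FPKM, with Cd68 lower (95.7 and 26.3 FPKM) and Ly6c2 (20.5 and 98.0 FPKM) and Csf1r (1.56 and 5.31 FPKM) higher. Of 8 LSK markers, 3 were lower (Kit, Ly6a and Hlf) and 1, Slamf1, was higher (3.39 and 8.67 FPKM). Cd34, Flt3, Meis1 and Procr were within 2-fold, and the interval of Hlf spans no difference. The sum of the list was 1090.2 and 387 FPKM, with Kit, which is also in the mast cell list, at 468 and 30.1 FPKM.

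The other lists had the following sums. The neutrophil list had 396 and 157 FPKM, with S100a8 at 204 and 108 FPKM, S100a9 at 104 and 30.04 FPKM and Ngp at 52.3 and 9.72 FPKM. The erythroid list had 286 and 211 FPKM, in which Alas2 was lower (100.3 and 32.8 FPKM) while Klf1 was within 2-fold (103 and 108 FPKM). In the megakaryocyte list (191 and 114 FPKM) Itga2b was lower (123 and 32.5 FPKM), and Pf4 (57.9 and 71.2 FPKM) and Gp9 (5.75 and 7.29 FPKM) were within 2-fold. The stroma or endothelium list (52.03 and 26.5 FPKM) held Pecam1 (46.9 and 23.4 FPKM) and Col1a2 (4.68 and 0.310 FPKM), which were lower, and Cxcl12 (0.194 and 2.68 FPKM), which was higher. The NK cell list had 4.05 and 1.65 FPKM, with Prf1 at 1.30 and 0.621 FPKM, Klrd1 at 1.01 and 0.871 FPKM and Klrb1c at 0.718 and 0.0790 FPKM. The B cell list had 3.60 and 18.0 FPKM, nearly all of it from Cd79b (3.10 and 17.8 FPKM), the 1 gene of 6 that could be compared, whereas Ms4a1 had 0.505 and 0.0517 FPKM, Cd79a was listed at 0 in WT and had 0.171 FPKM in STAP-1 KO cells, and Pax5 and Ebf1 were listed at 0 in both libraries.

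**Figure D5:**
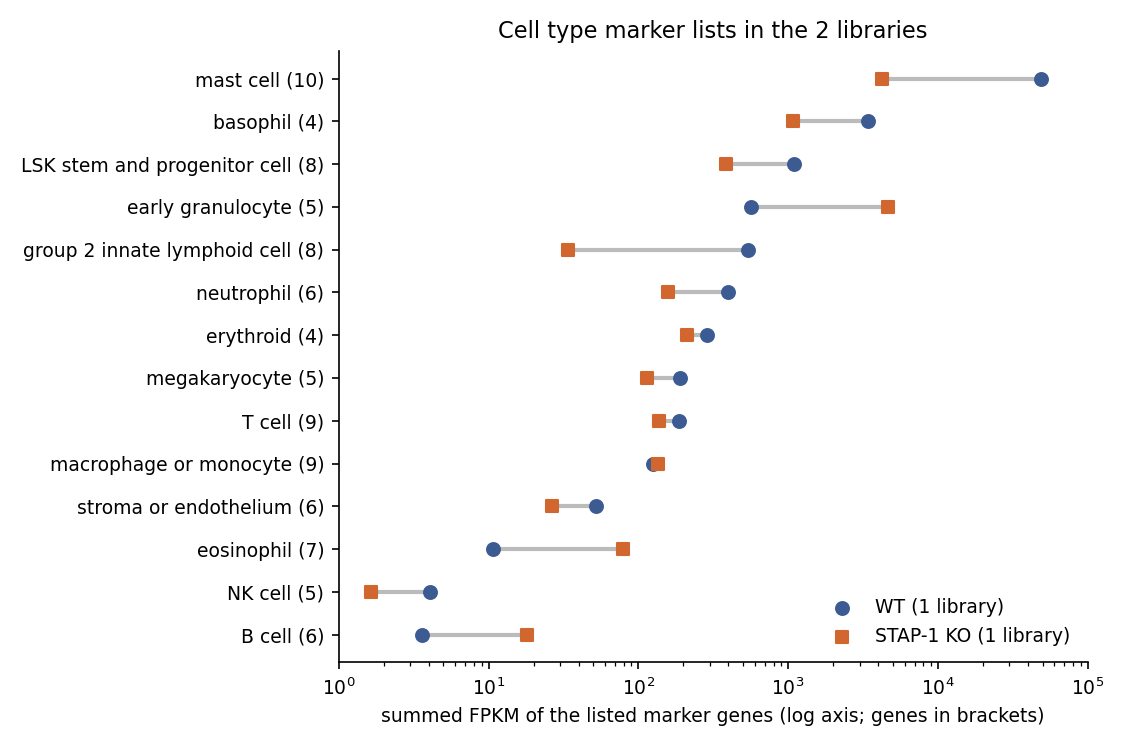
Summed FPKM of each cell type marker list (log axis, number of genes in brackets) in the WT library (circles) and the STAP-1 KO library (squares). The mast cell sum was 49059 and 4257 FPKM and the early granulocyte sum 564 and 4623 FPKM, so the mast cell list had the largest sum in WT and the early granulocyte list in STAP-1 KO cells.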

How the data were processed

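RNA-seq was performed on 1 library each of WT and STAP-1 KO GFP+ CD45.2+ LSK cells, from cDNA made with a SMART-Seq v4 kit and sequenced as single reads of 75 bases. The methods name an RNeasy Mini kit and the labels a miRNeasy kit. The authors mapped the reads to mm10 with TopHat2 2.0.13, Bowtie2 2.2.3 and SAMtools (0.1.19 in the submitters' processing notes, another version in the methods) and deposited FPKM values from Cuffnorm 2.2.1. The annotation, the scaling of the libraries and the read totals are not given in the sources used here.

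Log2 ratios used a pseudocount of 0.1 FPKM, and calls a 2-fold ratio with 0.1 FPKM or more in both libraries. Reads were estimated as FPKM times effective depth times transcript length less 208 bases. Ratio intervals (95%) were Clopper-Pearson intervals of the share of reads, and intervals of levels were exact Poisson. Medians of lists used genes whose mean reached 1 FPKM, and the counts used all compared genes. Symbols were matched to GENCODE M21, 20911 as written and 1915 by an older symbol, and 458 were not matched. Length and GC were corrected by medians in 20 bins each, on log2 ratios with the pseudocount. Corrected calls, and those with a floor in either library, used ratios with the pseudocount, and all other calls used ratios without it.

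The genes named were the 9 cytokines, all receptor chains, listed cytokines with a mean of at least 1 FPKM, the 5 regulators and 3 response genes per list with the largest differences at a pseudocount of 1 FPKM, the 3 highest markers per cell type (1 of them is not reported here), neighbours within 300 kb (some only in the counts) and the nearest genes. Genes outside this rule were chosen after their values were seen. The 9 cytokines and the lists were chosen with earlier results of these data known. Python 3.11.15, numpy 2.4.6, pandas 2.3.3, scipy 1.17.1 and matplotlib 3.10.9 were used, and the steps were tested on simulated data.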

Additional observations from a re-analysis of the deposited data

How the results depend on the processing

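The scaling of the libraries, the pseudocount, the floor, the fold limit and a correction for length and GC content were varied, and a minimum of 10 estimated reads was added after seeing the data. The number of the 9 cytokines that were lower was 7, and it was 6 with a floor of 1 FPKM or with at least 10 estimated reads (without Il3) and 5 at a 4-fold limit (without Il3 and Osm). The number that were higher went from 1 to 0 with the length and GC correction, with a floor of 1 FPKM and at a 4-fold limit, since Il10 was lost. Corrected calls carry the added 0.1 FPKM and main calls do not, so the loss of Il10 there cannot be put down to the correction alone. With the correction the median log2 difference was -3.78 for the type 2 genes in place of -3.19, -2.50 for the IL-6 family in place of -2.88 and -2.58 for the colony-stimulating factors in place of -1.97, so that the latter groups changed places. Of 50 values of member counts and medians, 45 stayed within counting error or within 1.5 times. The corrected median of the colony-stimulating factors was among these 45. No cytokine changed direction in 56 values, of which 49 stayed within counting error and 7 moved by more (Il4, Il6, Lif, Csf2 and Osm with the correction, Osm also under other scalings), and of 242 counts over the gene lists 215 stayed within 1.5 times. Il3 ranged from -2.24 to -0.88 and Il10 from 0.995 to 1.88. Under the equal FPKM sum the lower genes made up 58.1% of all calls in place of 65.0%, and 56.2% at a 1.5-fold limit and 78.1% at a 4-fold limit. The median of all genes moved by about 0.10 at most under the scalings, to 0.06. With 1 library per genotype, a difference between mice, sorts or libraries cannot be told apart from that of the genotype, and Il3, Il10 and Il5 are limited by depth.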
